A study of Mus musculus with 12 samples.

Results

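The genes described here are the 8974 that cultured HM1 cells express well, out of 55416 gene identifiers shared by the culture and tumor tables. They were chosen by their levels in culture: a listed length of at least 200 bases and at least 5 TPM (a transcript share corrected for gene length and scaled to one total in every library) in each of the 6 culture libraries. A further 40 genes reached that level but were shorter. The comparison made on them was the effect of St3gal3 knockdown in tumors minus its effect in culture, so that genes which only host cells of a tumor express were left out.

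HM1 is a mouse ovarian cancer cell line. The 4 groups held 3 libraries each: HM1-shControl, cultured cells with a control short hairpin RNA and labelled wild type; HM1-shST3GAL3, cultured cells labelled as a knockdown of St3gal3; shControl tumors; and shST3GAL3 tumors, tumors of these lines under the same 2 genotype labels. Every group therefore carries a hairpin and the same HM1 background, and a tumor holds host cells beside HM1 cells. The labels give no promoter for the hairpins, no number of hairpins or clones, no strain, age or site for the tumors, and leave unsaid whether a group's 3 samples came from separate cultures or animals. The p-values therefore reflect only the spread among the samples, possibly a technical one.

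St3gal3 encodes a sialyltransferase that caps glycans of the cell surface with sialic acid, a sugar that receptors on immune cells can read. In culture, cancer cells meet medium alone. In a tumor the same cells sit beside leukocytes, vessels and fibroblasts and receive their signals, among them interferons, which bind surface receptors and switch on genes of antiviral defence and of antigen presentation on major histocompatibility complex (MHC) class I. A transcript level in a tumor is the sum over all its cells, so a higher share of a cell type and more RNA per cell cannot be told apart.

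St3gal3 itself stood at 9.59, 12.52 and 12.93 TPM in control cultures and at 1.52, 1.25 and 1.83 TPM in knockdown cultures, which puts it below the level asked of a member. In tumors it was 14, 15.39 and 15.36 TPM with the control hairpin and 7.28, 5.87 and 5.76 TPM with the St3gal3 hairpin. The knockdown libraries were thus below the control libraries in both tissues, and the fall was larger in culture (log2 -2.32 ± 0.16, SE) than in tumors (-1.13 ± 0.11). The cultures carried the keratins of an epithelial line, with Krt8 at 2110 ± 35.4 TPM (SD, n = 3), Krt18 at 1693 ± 63.2 TPM and Krt19 at 1108 TPM in control cultures. Other epithelial markers were near 0 there, at 0.18 TPM for Epcam, 0.31 TPM for Krt7 and 0.02 TPM for Cdh1. Markers of other cell types were also near 0 in control cultures, at 0 TPM for Ptprc of leukocytes, 0.16 TPM for Pecam1 of endothelium and 0.01 TPM for Pdgfrb of mural cells.

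The member genes held 95.2 to 95.8% of all TPM in culture and still 92.6 to 94.2% in tumors. Sequencing depth is unknown here, as TPM values do not carry it. Control tumors and control cultures lay within 2-fold of each other for 7429 of the 8924 members tested in tumors, while 608 were at least 2-fold higher in control tumors and 887 at most 0.5-fold. These ratios are descriptive, since the tables of the tissues were normalized separately. At the low end, 42 members were listed at 0 in at least 1 tumor and 14 in all 6. Among those 14, named after their values were seen, were Svs2, a seminal vesicle protein listed at 17.8 TPM in control cultures, Bhmt, a methyltransferase typical of liver, at 38.8 TPM, and the pancreatic proteases Try4, at 6.95 TPM, and Cela2a, at 7.57 TPM. 

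Few member genes passed the test for an effect of knockdown in tumors, and 0 passed it in culture. A gene is called here when limma's two-sided test gave a Benjamini-Hochberg adjusted p under 0.05 over every gene tested, members or not. In tumors, where the other members were under the filter on low values, 88 of 8924 tested members were called, 50 higher and 38 lower. That is 0.986% of the members, against 1.51% of all 14915 genes tested in tumors, with 1.07% called higher and 0.436% called lower. In culture 0 of 8974 members were called, against 0.0296% of 13492 genes. At an unadjusted p under 0.05 there were 272 such members in culture, or 3.03% against a background of 3.42%. The same threshold held for 1697 members in tumors, or 19.0% against 18.7% of all genes. Because the level in culture chose the members, the culture figures are a description. The rule used no tumor level, but it was set with earlier results of these data known. The difference between tissues also includes the culture libraries that the rule used.

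The effects in tumors and in culture differed beyond the spread of the libraries for 23 members, 11 with a higher and 12 with a lower effect in tumors. This was 0.256% of the members. Of all 15381 genes tested for the difference, 0.754% were called, 0.572% higher and 0.182% lower, and among the tested genes that are not members the share was 1.45%. The difference and the tumor comparison share the tumor libraries, so they are no independent evidence for each other, and 20 of the 23 genes were called in both. At an unadjusted p under 0.05 the difference held for 821 members, or 9.15%, against 11.1% of all genes tested.

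The effects were small for the bulk of the genes. From the 5th to the 95th percentile, members differed by log2 -0.40 to 0.28, with a median of -0.06, and all tested genes had the same median. A log2 difference of at least 1 in size was reached by 46 members, 0.513% of them, against 5.62% of all tested genes. Of the other tested genes 12.8% reached it. Members had to reach 5 TPM in every culture, whereas the other genes needed a mean of only 1 TPM in any group. The shares are therefore a description, and the part of expression level in them was not tested. The values of the knockdown tumors did not overlap those of the control tumors for 2302 tested members (25.8%), against 24.9% of all shared genes tested. In culture this held for 659 members (7.34%), against 7.65%. Across the 8924 members with both values, the effect in culture and the effect in tumors had a Pearson r of 0.07 and a Spearman rho of 0.10, a description over genes that come from the same 12 libraries. The scatter of tumor effects against culture effects shows the called genes stretched along the tumor axis. That spread follows from the calls, as all but 3 of these genes were called in tumors and 0 members in culture.

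**Figure D1:**
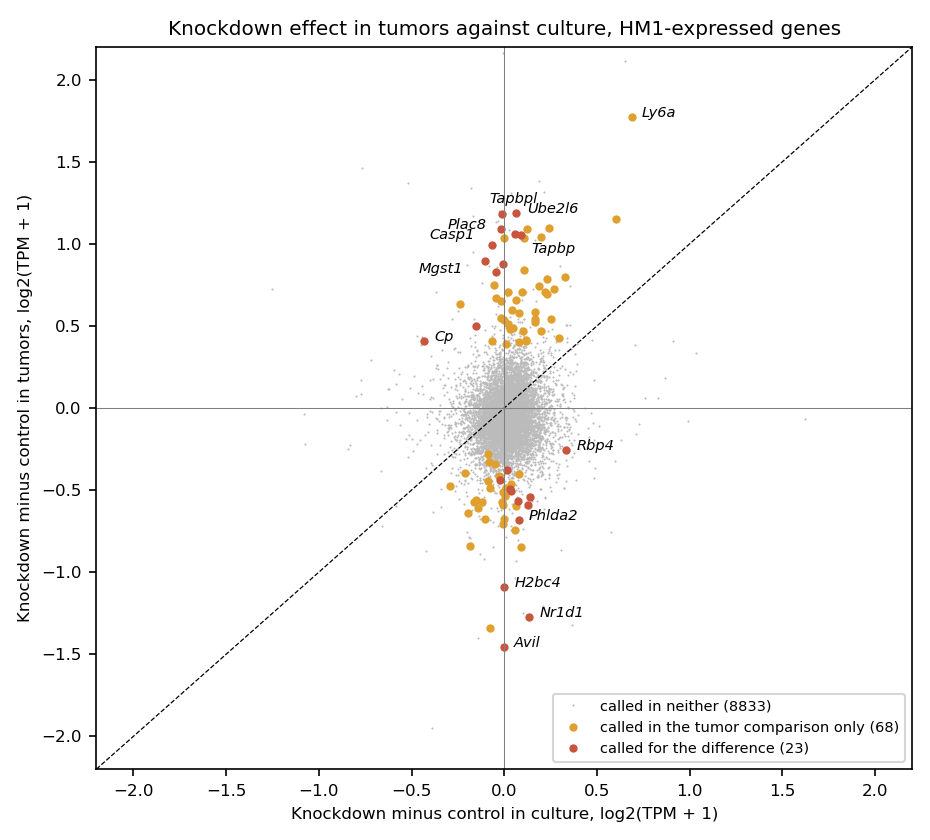
Knockdown minus control in culture (x axis) and in tumors (y axis), both as log2(TPM + 1), for 8924 member genes, with 4 lying outside the axes of ±2.2. Grey points were called in neither test, orange points (68) in the tumor comparison only and red points (23) for the difference between tissues. The dashed line marks equal effects, and the called genes lie close to 0 in culture, apart from Ly6a at 0.69 and a few others.

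Of the 23 genes, 21 had a larger effect in tumors than in culture, and 16 had a culture effect under 0.1 in size on the log2 scale. The exceptions to the first count were Cp and Rbp4. Of the 11 higher genes 5 were on the class I or interferon lists. The 12 lower genes included an actin-binding protein, a clock repressor, 2 histones and a collagen chaperone. Members counted as high in tumors already, at a control tumor level 2-fold or more over control culture, were called in tumors in 4.28% of cases (16 higher, 10 lower). The share was 0.740% for those within 2-fold and 0.789% for those at 0.5-fold or less. The control tumors set these classes and also enter the tumor comparison, so the shares are a description.

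**Figure D2:**
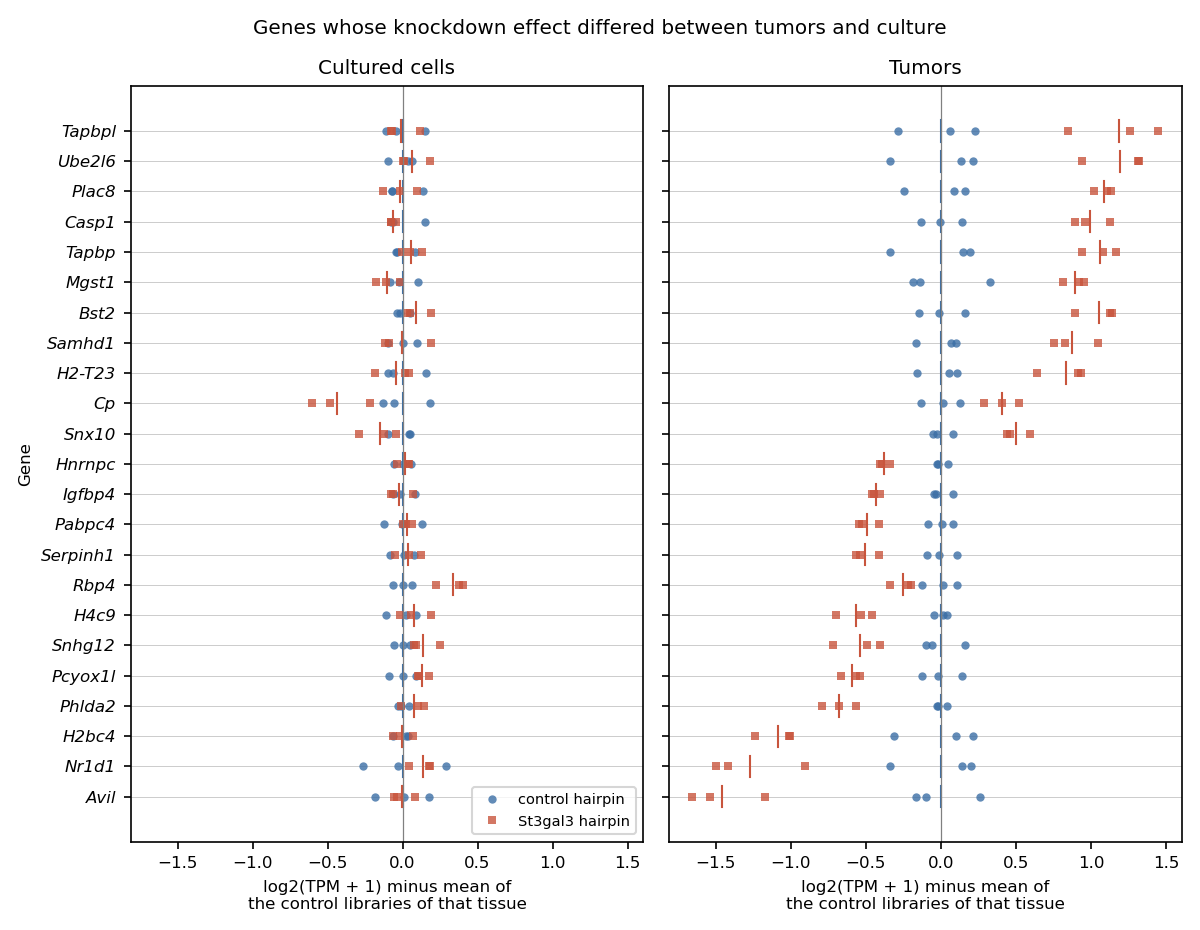
Each of the 23 genes called for the difference, in cultured cells (left) and tumors (right). Points are single libraries as log2(TPM + 1) minus the mean of the control libraries of that tissue, and short bars are group means of 3. In tumors no St3gal3 hairpin library overlaps a control library for any of these genes. In culture the groups are apart for Cp, Rbp4, Pcyox1l and Snhg12 and overlap for the other 19.

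Interferon-response promoters are shown first, since the group of genes that rose in tumors is the one in which a shared sequence was looked for. The interferon-stimulated response element was searched as GAAA, then any 2 bases, then GAAA, on both strands, in RefSeq promoters of mouse assembly GRCm38.p6 that run from 250 bases before to 50 bases after a gene's start. That assembly is older than the GRCm39 that the submitters' processing notes name, so the coordinates belong to RefSeq and not to the deposited tables. Of 27025 genes with such a promoter 3.99% held the element, and of the 7061 members matched by symbol 3.46% held it. Among members called higher in tumors it was present in 15 of 42 with a promoter (35.7%), against 1 of 28 (3.57%) of those called lower. The 15 are not all independent. They include the related genes Mndal, Ifi203 and Ifi211, and Mndal and Ifi203 share the bases around a match. For Cytip and Snx10 the match lies beside a run of T. For the difference it was found in 3 of 10 called higher and in 0 of 10 called lower. A match describes the letters only. The gamma-activated site, searched as TTCNNNGAA, was present in 9.55% of all promoters, 7.82% of members, 9 of 42 members called higher in tumors and 1 of 28 called lower. The E-box CACGTG, a site type used by clock factors, was present in 4 of 42 and 2 of 28, against 12.3% of members, and the D-box TTATGTAA in 0 of each, against 0.538% of members.

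The 3 promoters from the difference and 2 from the tumor comparison are printed 5′ to 3′ on the gene's strand, with the matches in capitals. Bst2 lies at chr8:71537423-71537722, minus strand, with 2 overlapping matches that start 130 and 124 bases before the gene's start and overlap a gamma-activated site. H2-T23 lies at chr17:36032652-36032951, minus strand, with a match 124 bases before the start. Snx10 lies at chr6:51524010-51524309, plus strand, with a match 26 bases before the start. Ifi203 lies at chr1:173942443-173942742, minus strand, with a match 35 bases before the start. Ifitm3 lies at chr7:141010695-141010994, minus strand, with matches 2 and 19 bases after the start.
Bst2: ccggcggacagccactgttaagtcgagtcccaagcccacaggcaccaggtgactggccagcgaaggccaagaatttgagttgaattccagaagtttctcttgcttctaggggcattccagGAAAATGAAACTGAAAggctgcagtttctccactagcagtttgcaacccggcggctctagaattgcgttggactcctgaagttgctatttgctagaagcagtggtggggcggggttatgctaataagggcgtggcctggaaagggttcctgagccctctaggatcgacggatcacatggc
H2-T23: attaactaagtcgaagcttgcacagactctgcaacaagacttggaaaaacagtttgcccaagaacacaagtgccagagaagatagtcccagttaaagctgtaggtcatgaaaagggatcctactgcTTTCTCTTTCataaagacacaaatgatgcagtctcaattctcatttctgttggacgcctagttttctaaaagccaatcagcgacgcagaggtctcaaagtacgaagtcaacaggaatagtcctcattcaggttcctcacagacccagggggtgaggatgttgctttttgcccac
Snx10: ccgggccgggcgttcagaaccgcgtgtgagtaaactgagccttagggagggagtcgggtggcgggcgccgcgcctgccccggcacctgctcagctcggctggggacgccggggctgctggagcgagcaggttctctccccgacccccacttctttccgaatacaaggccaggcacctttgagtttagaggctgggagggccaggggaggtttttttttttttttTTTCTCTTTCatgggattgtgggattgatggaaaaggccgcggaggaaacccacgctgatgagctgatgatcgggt
Ifi203: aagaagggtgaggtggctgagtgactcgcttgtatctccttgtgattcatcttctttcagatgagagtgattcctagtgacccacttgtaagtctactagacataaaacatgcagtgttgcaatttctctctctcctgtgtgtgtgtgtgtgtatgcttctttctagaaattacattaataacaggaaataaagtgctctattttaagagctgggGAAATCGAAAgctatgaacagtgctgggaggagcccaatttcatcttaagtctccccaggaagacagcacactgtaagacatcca
Ifitm3: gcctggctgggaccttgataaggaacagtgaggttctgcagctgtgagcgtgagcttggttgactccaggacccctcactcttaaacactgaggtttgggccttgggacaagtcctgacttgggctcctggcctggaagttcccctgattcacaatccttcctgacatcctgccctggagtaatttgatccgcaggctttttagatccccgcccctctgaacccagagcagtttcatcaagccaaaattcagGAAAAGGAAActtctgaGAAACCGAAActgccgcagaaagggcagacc

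Of the member genes of MHC class I presentation, 5 of 20 were called higher in knockdown tumors and 0 in culture, where 0 also had an unadjusted p under 0.05 by limma. Class I molecules carry peptides cut by the proteasome to the cell surface. The peptides enter the endoplasmic reticulum through the transporter Tap1 and Tap2 and are loaded with the help of tapasin. Of 23 listed genes 20 were members. In tumors 5 were called higher and 0 lower, against 1.07% and 0.436% of all genes tested, and 17 values were positive and 3 negative. For all 20 the knockdown and control tumors did not overlap, against 24.9% of all shared genes tested. The count of 5 in tumors fell to 0 without knockdown tumor 1 or 2, to 1 without control tumor 2 and to 3 without control tumor 3, and became 8 without control tumor 1. The median log2 change was 0.84 in tumors, against -0.05 over all genes tested, and 0.06 in culture. For the difference 3 were called higher and 0 lower, against 0.572% and 0.182% of all genes tested. The median difference was 0.78, against -0.06 over all genes tested. That count of 3 fell to 0 without HM1-shControl 2 or 3, HM1-shST3GAL3 1 or 3 or knockdown tumor 1 or 2, and to 1 without HM1-shControl 1 or HM1-shST3GAL3 2. It became 2 without control tumor 2 and 5 without control tumor 1, and the median stayed between 0.52 and 0.86 over the 12 omissions. Levels of class I heavy chains are uncertain because the genes are nearly alike and RSEM divides reads among them.

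Tapbpl encodes a peptide editor of class I molecules related to tapasin. It stood at 8.88, 11.56 and 13.11 TPM in control tumors, compared with 31.94, 27.85 and 20.66 TPM in knockdown tumors. The 6 cultures lay between 5.51 and 6.79 TPM, with the groups overlapping. The log2 change was 1.19 ± 0.19 (SE; adjusted p = 0.0396) in tumors and -0.01 ± 0.13 in culture, a difference of 1.20 ± 0.24 (adjusted p = 0.0476). Tapbp, tapasin itself, stood at 69.8, 98.48 and 101.74 TPM in control tumors, compared with 200.43, 188.45 and 171.21 TPM in knockdown tumors. Its cultures had means of 38.7 and 40.4 TPM, so that the 2.07-fold rise of the tumor mean had no counterpart there, and the difference was 1.00 ± 0.18 (adjusted p = 0.0241). H2-T23, a non-classical class I chain that natural killer receptors recognise, had 225.86, 262.57 and 272.69 TPM in control tumors, compared with 478.3, 485.02 and 394.61 TPM in knockdown tumors. Its control tumor mean was 6.81 times its control culture mean of 37.3 TPM, the largest such ratio among the 23 genes, and its difference was 0.87 ± 0.15 (adjusted p = 0.0241).

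Psme2, a subunit of the interferon-inducible proteasome activator, was called in tumors but not for the difference. It had 330.82, 363.12 and 297.04 TPM in control tumors, compared with 750.77, 732.84 and 566.96 TPM in knockdown tumors (log2 1.04 ± 0.12; adjusted p = 0.016). Its difference of 0.84 ± 0.17 had an adjusted p of 0.0528. Erap1, which trims peptides in the endoplasmic reticulum, changed by 0.84 ± 0.15 in tumors (adjusted p = 0.0494). Larger values that missed the threshold were 1.39 for the immunoproteasome subunit Psmb10 (adjusted p = 0.0599), 1.31 for Tap1 (0.146) and 1.14 for Tap2 (0.0855), each named after its value was seen. For Tap1 the control tumors spread from 24.45 to 56.15 TPM and the knockdown tumors from 98.45 to 112.25 TPM, with no overlap but a wide control group. The highest class I transcripts missed it too, with H2-K1 at 0.64 (0.149) and B2m, the shared light chain, at 0.41 (0.168). Canx, Calr and Pdia3, chaperones that also serve other glycoproteins, had values of -0.15, -0.24 and -0.06 in tumors, none of them called, and Pdia3 turned to 0.01 with median-of-ratios scaling. Control tumor 1 was the lowest control for 16 of the 20 genes, and knockdown tumor 3 the lowest knockdown tumor for 16. The constitutive proteasome, which makes most peptides in unstimulated cells, had 0 of 31 members called by limma in tumors or for the difference, 14 and 3 at an unadjusted p under 0.05, and a median difference of 0.05. In tumors its median was 0.14, with 27 positive values and 19 genes whose groups did not overlap, against 24.9% of all shared genes tested. Over all genes tested, 18.7% in tumors and 11.1% for the difference had an unadjusted p under 0.05 by limma. Psma5, with 198.62, 185.24 and 161.25 TPM in control cultures, had the smallest p of that list (difference 0.38 ± 0.15; adjusted p = 0.346).

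Of the interferon-stimulated genes among the members, 7 of 14 were called higher in knockdown tumors, against 1.07% of all genes tested. Of 49 listed genes found in the tables only 14 were expressed well enough in culture to be members. In tumors 0 were called lower, and the median was 0.57, against -0.05 over all genes tested. The count of 7 fell to 1 without knockdown tumor 1 or 2 and to 3 without control tumor 2, and the median stayed between 0.54 and 0.59 over the 6 omissions. For the difference 2 were called higher and 0 lower, against 0.572% and 0.182% of all genes tested. The median difference was 0.48, against -0.06 over all genes tested. That count of 2 fell to 1 without HM1-shControl 2 or 3, HM1-shST3GAL3 2 or 3 or knockdown tumor 1. It became 4 without knockdown tumor 3, and the median difference stayed between 0.395 and 0.539 over the 12 omissions. All 14 had a positive value in both comparisons, from 0.20 for Trim25 to 0.96 for Bst2 in the difference. The culture median was 0.05, with 0 called and 0 at an unadjusted p under 0.05 by limma.

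Bst2 encodes tetherin, a membrane protein that holds budding enveloped viruses at the cell surface. It had 202.73, 251.12 and 222.63 TPM in control tumors, compared with 491.39, 497.22 and 417.44 TPM in knockdown tumors. Its cultures ran from 90.94 to 106.21 TPM over both groups, which overlapped. The tumor change was 1.05 ± 0.10 (adjusted p = 0.00954) against 0.09 ± 0.07 in culture, a difference of 0.96 ± 0.13 (adjusted p = 0.00692). Samhd1, which degrades deoxynucleotides and so limits retroviruses, had 63.24, 76.37 and 74.37 TPM in control tumors, compared with 147.75, 127.03 and 120.73 TPM in knockdown tumors, with culture means of 58.5 and 58.4 TPM. Its difference was 0.88 ± 0.15 (adjusted p = 0.0234). In tumors Ifitm3, which blocks virus entry, changed by 0.66 ± 0.09 (adjusted p = 0.0179), with a mean of 719 TPM in control cultures, 1264 TPM in control tumors, compared with 2001 TPM in knockdown tumors. Also called there were Eif2ak2, the kinase that senses double-stranded RNA, at 0.60, Ifi27 at 0.54, Isg20 at 0.47 and Znfx1 at 0.71. Ube2l6, the conjugating enzyme for the ubiquitin-like protein Isg15, was on no list. It had 24.64, 34.6 and 36.67 TPM in control tumors, compared with 79.69, 80.3 and 61.39 TPM in knockdown tumors, and its culture means were 13.7 and 14.3 TPM. The difference was 1.13 ± 0.21 (adjusted p = 0.033).

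Only 5 of 31 interferon-gamma-induced genes were members. In tumors 1 of the 5 was called higher, Wars, the tryptophan tRNA synthetase, with 32.78, 37.75 and 40.54 TPM in control tumors, compared with 64.5, 60.51 and 51.29 TPM in knockdown tumors (0.65 ± 0.11; adjusted p = 0.0466). Over all genes tested in tumors, 1.07% were called higher. The count of 1 fell to 0 without control tumor 2 or 3 or knockdown tumor 1 or 2. Irf1, a transcription factor of the interferon-gamma response, had 54.59, 96.43 and 88.87 TPM in control tumors, compared with 227.6, 206.42 and 155.58 TPM in knockdown tumors. Its groups did not overlap, yet its difference of 1.27 ± 0.29, the largest of the 3 interferon and class I lists, missed the threshold (adjusted p = 0.0915). Socs3, a feedback inhibitor, had a value of -0.13 in tumors and was not called.

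Ifi203, Ifi204 and Ifi211, genes of the PYHIN family, which includes sensors of DNA, were on no list and were called in tumors but not for the difference. Ifi203 had 34.99, 33.42 and 34.34 TPM in control tumors, compared with 70.83, 84.92 and 68.63 TPM in knockdown tumors (1.10 ± 0.09; adjusted p = 0.00595). Its level in culture was low and uneven, with 5.16, 11.63 and 5.9 TPM in knockdown cultures, and its difference was 0.86 ± 0.33 (adjusted p = 0.342). Ifi204 changed by 1.04 ± 0.08 (adjusted p = 0.00558) and Ifi211 by 1.04 ± 0.11 (adjusted p = 0.0121), with differences of 1.04 and 0.93 (adjusted p = 0.143 and 0.152). These genes lie close in sequence, and so do the next pair, so their levels are uncertain. Ly6a, a surface antigen anchored by a lipid, had 163.68, 245.2 and 217.77 TPM in control tumors, compared with 794.05, 783.46 and 570.69 TPM in knockdown tumors. This was the largest rise among called members of the tumor comparison (1.78 ± 0.19; adjusted p = 0.017). Its cultures did not overlap either, at 76.04 to 89.48 TPM with the control hairpin and 114.79 to 147.5 TPM with the St3gal3 hairpin (0.69 ± 0.12; adjusted p = 0.506), and the difference was 1.09 ± 0.24 (adjusted p = 0.0747). Ly6c1 likewise had 0.60 in culture and 1.15 ± 0.15 in tumors (adjusted p = 0.022), with a difference of 0.55 (adjusted p = 0.374).

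The other 5 genes called higher for the difference were on no list. Casp1, the caspase that matures inflammatory interleukins, had 28.94, 31.59 and 35.17 TPM in control tumors, compared with 62.73, 70.56 and 59.84 TPM in knockdown tumors. Its cultures stayed between 14.3 and 16.9 TPM, and its difference of 1.06 ± 0.14 had the smallest adjusted p of the higher genes, at 0.00689. Plac8, a small cysteine-rich protein, had 64.75, 82.19 and 86.33 TPM in control tumors, compared with 157.61, 170.88 and 167.24 TPM in knockdown tumors, and 45.47 to 54.94 TPM in the cultures (difference 1.10 ± 0.15; adjusted p = 0.00906). Mgst1, a glutathione transferase of membranes, was the only one of the 11 with control tumors below control cultures. It had 25.41, 24.55 and 35.43 TPM in control tumors, compared with 55.28, 50.16 and 54.11 TPM in knockdown tumors, against culture means of 39.9 and 37.1 TPM (difference 1.00 ± 0.17; adjusted p = 0.0224). Snx10, a sorting protein of endosomes, rose from a mean of 26.1 to 37.3 TPM in tumors (difference 0.65 ± 0.12; adjusted p = 0.0343). Cp, the copper-carrying ferroxidase ceruloplasmin, had effects of opposite sign in the tissues. It was lower in knockdown cultures, at 15.64, 14.36 and 19.01 TPM against 20.31, 21.42 and 25.47 TPM, and higher in knockdown tumors, at 81.61, 88.83 and 96.06 TPM against 72.78, 60.59 and 67.18 TPM. Neither change was called alone (adjusted p = 1.0 in culture and 0.0881 in tumors), while the difference was 0.84 ± 0.17 (adjusted p = 0.049).

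Among members called with a lower effect in tumors, Avil had the largest difference. It encodes advillin, an actin-binding protein of the villin family. Control tumors had 17.44, 13.37 and 12.71 TPM and knockdown tumors 3.87, 5.81 and 4.29 TPM, a mean at 0.321 times that of the controls. The cultures were at 12.7 ± 1.72 and 12.6 ± 0.72 TPM (SD, n = 3 each), near the lowest control tumor. The difference was -1.46 ± 0.22 (adjusted p = 0.0124). Avil was 1 of 6 members of the epithelial and ovarian tumor list and the only one called there. Over all genes tested, 0.182% were called lower for the difference. The others in that list had tumor values of -0.64 for Msln (adjusted p = 0.0796), -0.34 for Krt8, -0.32 for Krt19, -0.25 for Krt18 and 0.04 for Wfdc2.

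Nr1d1, a nuclear receptor that represses clock genes, had 25.89, 18.21 and 26.95 TPM in control tumors, compared with 8.12, 7.6 and 12.02 TPM in knockdown tumors. Its cultures overlapped at 15.86 to 23.72 TPM, and the difference was -1.41 ± 0.27 (adjusted p = 0.0402). It was the only one of 9 clock members called. Over all genes tested, 0.436% were called lower in tumors and 0.182% for the difference. Nr1d2, a relative of Nr1d1, had 27.57, 22.03 and 24.22 TPM against 11.92, 12.25 and 19.03 TPM in tumors (difference -0.81 ± 0.25; adjusted p = 0.232). Clock and Arntl, the activators of the clock, had differences of 0.03 and 0.04. Knockdown tumor 3 was the highest knockdown tumor for all 9 of these genes.

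Of the histone genes among the members, 3 of 6 were called lower in knockdown tumors, against 0.436% of all genes tested. Of 39 histone genes on the list 6 were members. The count of 3 in tumors fell to 0 without control tumor 3 or knockdown tumor 1 or 2, to 1 without control tumor 1 and to 2 without knockdown tumor 3. For the difference 2 were called lower, against 0.182% of all genes tested, and 1 to 3 when a library was left out. The median difference was -0.73. H2bc4, a core histone H2B, had 125.65, 87.01 and 116.57 TPM in control tumors, compared with 45.31, 53.36 and 53.11 TPM in knockdown tumors. All 6 cultures lay between 19.02 and 20.94 TPM, well under the tumors, and the difference was -1.09 ± 0.17 (adjusted p = 0.0153). H4c9, a histone H4, had 56.57, 54.26 and 57.66 TPM in control tumors, compared with 34.19, 38.46 and 40.63 TPM in knockdown tumors (difference -0.64 ± 0.12; adjusted p = 0.0334). The linker histone H1f2 had 238.19, 182.01 and 278.46 TPM against 71.93, 91.66 and 110.75 TPM in tumors (tumor change -1.34 ± 0.21; adjusted p = 0.0494) and a mean of 11.2 TPM in control cultures. The adjusted p of its difference was 0.0526. H2ac10 went the other way without being called, at 1.08 for the difference, and H1f0 had -0.07, which turned to 0.02 with median-of-ratios scaling. Near-identical histone genes share reads, so these levels are uncertain. Of 37 cell cycle and replication members 0 were called by limma in tumors or for the difference, 2 and 1 had an unadjusted p under 0.05, and their median difference was 0.01.

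Of the matrix genes among the members, 5 of 11 were called lower in knockdown tumors, against 0.436% of all genes tested. Laminins and type IV collagens form the basement membrane on which epithelium and vessels sit. On this list of laminins, nidogens and collagens 0 were called higher, the median was -0.44, and all 11 values were negative. The count of 5 fell to 0 without control tumor 2 or 3 or knockdown tumor 1 or 2 and to 2 without control tumor 1. For the difference 0 were called by limma, 8 had an unadjusted p under 0.05, against 11.1% of all genes tested, and the median was -0.36. Hspg2, perlecan, had 84.49, 81.66 and 95.35 TPM in control tumors, compared with 46.05, 48.58 and 60.93 TPM in knockdown tumors (-0.75 ± 0.12; adjusted p = 0.033). Also called were Col4a1 at -0.59, Col4a2 at -0.57 and Col18a1 at -0.45. Serpinh1, the chaperone that folds collagen, was on no list and was called for the difference. It had 503.98, 533.09 and 578.35 TPM in control tumors, compared with 370.12, 362.29 and 403.49 TPM in knockdown tumors, against culture means of 180 and 185 TPM (difference -0.55 ± 0.10; adjusted p = 0.0334).

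The remaining genes with a lower effect in tumors have varied roles. Phlda2, an imprinted gene that restrains placental growth, was far lower in tumors than in culture: 18.82, 17.88 and 18.0 TPM in control tumors, compared with 10.1, 11.98 and 10.98 TPM in knockdown tumors, against 113.6 to 128.46 TPM in the cultures. Its difference of -0.76 ± 0.10 had the smallest adjusted p of the lower genes, at 0.00828. Pcyox1l, a relative of prenylcysteine oxidase, fell in tumors from a mean of 14.1 to 8.99 TPM (difference -0.72 ± 0.13; adjusted p = 0.0307). Snhg12, a non-coding host gene of small nucleolar RNAs, had 96.88, 80.62 and 83.06 TPM in control tumors, compared with 52.11, 61.09 and 65.05 TPM in knockdown tumors (difference -0.68 ± 0.14; adjusted p = 0.0477), and was not called in tumors alone (adjusted p = 0.0637). The RNA-binding proteins Pabpc4 and Hnrnpc had differences of -0.53 ± 0.10 (adjusted p = 0.0428) and -0.39 ± 0.07 (adjusted p = 0.0305). Igfbp4, which binds insulin-like growth factors, was among the more abundant members. It had 980.26, 990.61 and 1072.07 TPM in control tumors, compared with 765.23, 743.66 and 738.28 TPM in knockdown tumors, and 903.7 to 1009.11 TPM in the cultures (difference -0.41 ± 0.08; adjusted p = 0.0477). Rbp4, the retinol carrier, was higher in knockdown cultures, with means of 42.6 against 33.5 TPM, and lower in knockdown tumors, with means of 31.6 against 37.9 TPM. Its difference was -0.59 ± 0.12 (adjusted p = 0.0484), and neither change was called alone (adjusted p = 0.862 and 0.188).

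Members called lower in tumors but not for the difference numbered 28. The lowest of those not yet described included Cst6, a cysteine protease inhibitor, at -0.85 ± 0.13 (adjusted p = 0.0312), Slco2a1, the prostaglandin transporter, at -0.84 ± 0.12 (adjusted p = 0.0268), and Cacnb2, a calcium channel subunit, at -0.68 ± 0.11 (adjusted p = 0.0396). Cst6 had 12.25, 12.62 and 12.63 TPM in control tumors, compared with 7.09, 7.38 and 5.24 TPM in knockdown tumors. Slco2a1 had 28.79, 22.06 and 24.82 TPM against 14.63, 11.95 and 14.27 TPM. For both genes the tumors lay below the control cultures, at 24.7 and 39.6 TPM.

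The plot of differences by gene list shows the remaining pathways. Of 16 heat shock proteins and chaperones 0 were called by limma in tumors or for the difference, and 10 and 9 had an unadjusted p under 0.05. The shares over all genes tested were 18.7% and 11.1%. All 16 values were negative in both comparisons on the deposited scale, with a median difference of -0.28. With median-of-ratios scaling the chaperonin subunits Cct2 and Cct5 turned to 0.01 and 0.05 for the difference and Cct3 and Cct5 to 0.06 and 0.025 in tumors, and Cct3 also turned with members rescaled to one total. Hspb1, a small heat shock protein named after its values were seen, had 1495.35, 742.25 and 745.24 TPM in control tumors, compared with 182.42, 214.43 and 364.6 TPM in knockdown tumors (-1.95 ± 0.40; adjusted p = 0.1). Dnajb1, a co-chaperone, had 85.48, 74.72 and 81.88 TPM against 43.99, 43.42 and 60.17 TPM (difference -0.69 ± 0.16; adjusted p = 0.0856). Of 19 p53 targets 2 were called lower in tumors, Plk2 at -0.61 and Phlda3 at -0.40, and 0 for the difference. Over all genes tested in tumors, 0.436% were called lower and 1.07% higher. The p53 count of 2 fell to 1 without knockdown tumor 3 and to 0 without any other single tumor. It was also 0 with members rescaled to one total. Of 23 immediate early and ERK feedback genes 1 was called in tumors, Phlda1, which was lower (-0.57 ± 0.08; adjusted p = 0.0252). The number called on that list became 3 without knockdown tumor 3 and 0 without any other single tumor. Dusp6, a phosphatase that dampens ERK, had 202.77, 248.89 and 250.05 TPM against 314.98, 332.19 and 304.97 TPM (difference 0.60 ± 0.13; adjusted p = 0.0633). Of 15 NF-kappaB targets 1 was called in tumors, the chemokine Ccl2, with 361.72, 277.03 and 286.93 TPM against 478.22, 518.8 and 470.02 TPM (0.67 ± 0.11; adjusted p = 0.0338). The count on this list fell to 0 without control tumor 2 or 3 or knockdown tumor 1 or 2. Vcam1, an adhesion molecule on that list, had a difference of 0.95 ± 0.21 (adjusted p = 0.0747).

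**Figure D3:**
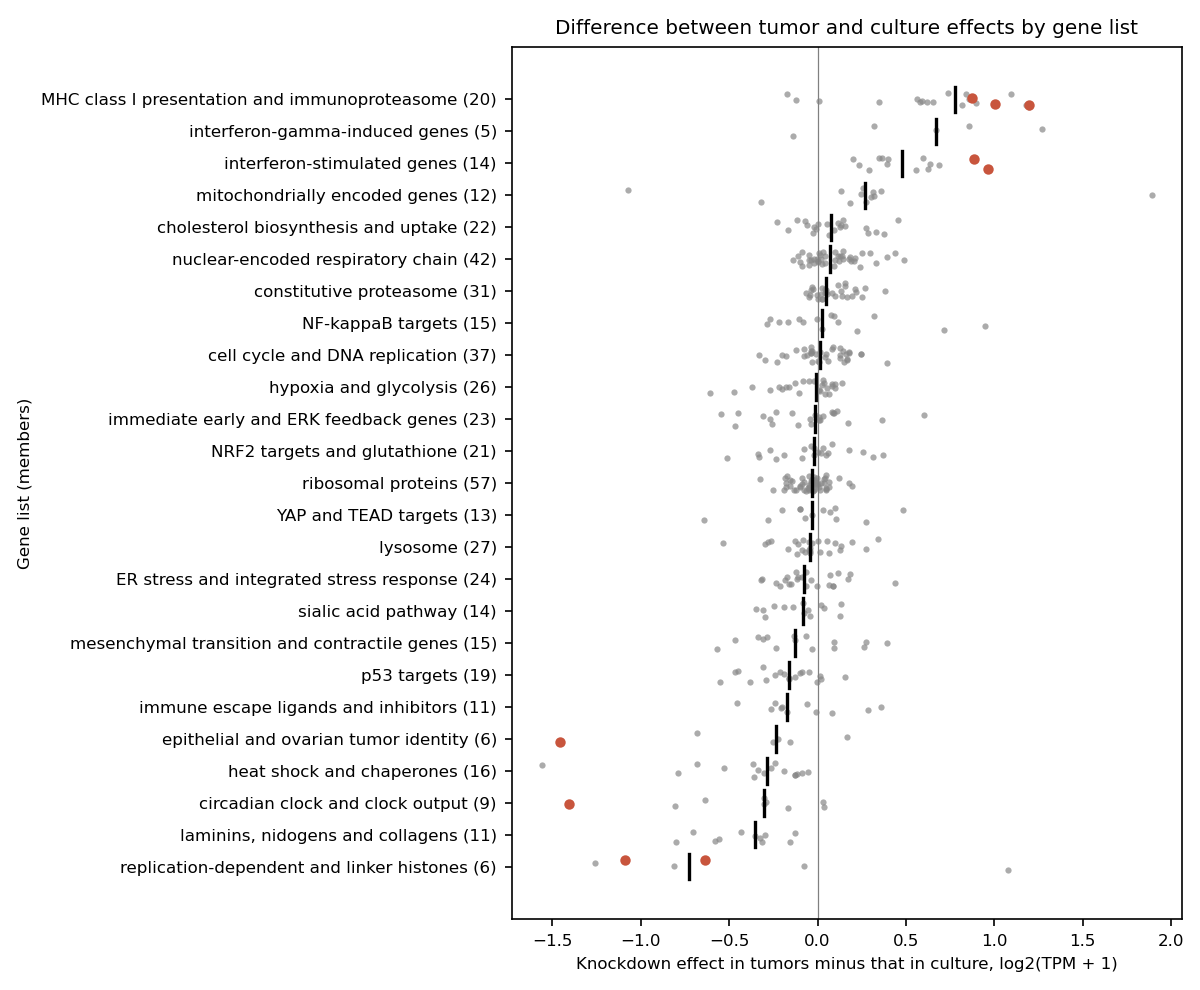
Knockdown effect in tumors minus that in culture, as log2(TPM + 1), for the members of each gene list, with the number of members in brackets. Points are genes, red where called, and black bars are medians; points are shifted up and down at random for legibility. The medians of the class I, interferon and mitochondrially encoded lists lie at 0.27 or above, those of the histone, matrix, clock, heat shock and epithelial lists at -0.24 or below, and all others between -0.17 and 0.08.

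No member was called in either comparison on the lists of hypoxia and glycolysis (26 members), ER stress (24), cholesterol synthesis (22), ribosomal proteins (57), nuclear-encoded respiratory chain (42), mitochondrially encoded genes (12), mesenchymal transition (15), YAP and TEAD targets (13), NRF2 targets (21), lysosome (27), sialic acid pathway (14) and immune escape ligands and inhibitors (11). By limma at an unadjusted p under 0.05, the difference held for 5 ribosomal, 4 respiratory chain and 6 mitochondrially encoded genes and for 0 to 2 on each of the other lists. In tumors the same threshold held for 0 cholesterol genes, 3 mitochondrially encoded genes and 4 to 11 on each of the other lists. The mitochondrially encoded genes had a median difference of 0.27. Among the sialic acid genes St3gal5, the ganglioside sialyltransferase, had 88.77, 72.58 and 80.3 TPM in control tumors, compared with 59.6, 65.17 and 59.72 TPM in knockdown tumors (difference -0.35 ± 0.12; adjusted p = 0.299). Cd47, the signal that restrains phagocytes, had 112.77, 105.68 and 106.71 TPM against 134.74, 130.75 and 125.37 TPM (difference 0.28 ± 0.08; adjusted p = 0.197).

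Markers of other cells were summed in each tumor. Cytotoxic lymphocytes, which include natural killer cells, had a summed level of 8 markers of 179 to 225 TPM in knockdown tumors against 69.8 to 93.2 TPM in control tumors. T cell markers summed to 59.3 to 80.6 TPM against 21.6 to 53.7 TPM, and mast cell markers to 144 to 188 TPM against 45.8 to 73.5 TPM. Of these lists 4 of 8, 0 of 10 and 5 of 6 tested markers were called higher, against 1.07% of all genes tested in tumors. In the cultures 4 of 8, 3 of 10 and 4 of 7 of the markers were listed at 0 in every library, and sums stayed at or under 3.05 TPM. Macrophage markers overlapped, at 1529 to 2002 against 1407 to 2002 TPM, with 1 of 11 called higher and 4 of 11 higher without overlap. Of all shared genes tested, 24.9% had groups without overlap in either direction. Leukocyte markers summed to 257 to 328 against 201 to 251 TPM with 1 of 5 called higher. The called marker was Cytip, itself a member, and these markers summed to 14.7 to 24.9 TPM in the cultures. Markers of fibroblasts and mural cells summed to 839 to 1199 in knockdown against 1065 to 1452 TPM in control tumors. Of these 2 of 10 were called lower, against 0.436% of all genes tested. Endothelial markers summed to 66.1 to 98.0 against 90.9 to 124 TPM, with 0 of 9 called. Mesothelial markers, of which Msln and Krt19 are themselves members and which reached 1359 TPM in culture, summed to 673 to 700 against 783 to 920 TPM, with 0 of 3 tested called. Skeletal muscle markers reached 101 and 78.6 TPM in knockdown tumors 1 and 3 and 15.7 TPM in knockdown tumor 2, against 3.49 to 16.5 TPM in controls. Leukocytes also express class I and interferon-response genes, fibroblasts and vessels matrix genes. The part of these cells in the results on members was not tested.

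**Figure D4:**
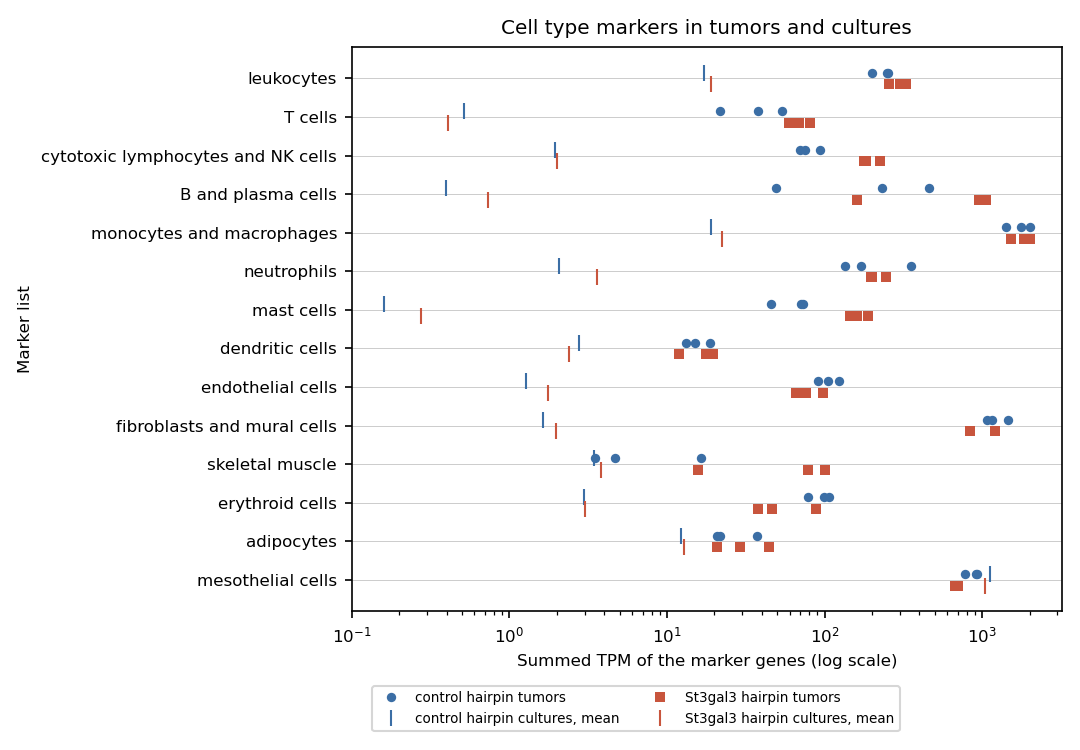
Summed TPM of the marker genes of each cell type on a log scale, for single tumors (points) and for the mean of the cultures (ticks). The leukocyte, cytotoxic lymphocyte, T cell and mast cell sums of the 3 knockdown tumors lie above all control tumors, the mesothelial sums lie below, and the sums of the other lists overlap.

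How firmly the counts stand depends on single libraries. Bst2, Casp1, Plac8, Avil, H2bc4 and Phlda2 were called for the difference whichever of the 12 libraries was left out. The 11 higher and 12 lower calls became 7 and 4, 6 and 5 or 3 and 5 without HM1-shControl 1, 2 or 3, and 5 and 4, 7 and 6 or 5 and 4 without HM1-shST3GAL3 1, 2 or 3. Without control tumor 1, 2 or 3 they became 23 and 13, 8 and 6 or 13 and 6, and without knockdown tumor 1, 2 or 3 they became 3 and 3, 6 and 3 or 19 and 25. In tumors the 50 higher and 38 lower members became 46 and 28, 14 and 9 or 21 and 4 without control tumor 1, 2 or 3, and 8 and 0, 9 and 2 or 36 and 69 without knockdown tumor 1, 2 or 3. In culture the count of 0 became 4 without HM1-shControl 1 and 1 without HM1-shST3GAL3 2. The 8 members called higher in all 6 of these omissions were Bst2, Casp1, Gm19705, Ifi203, Ifi204, Mndal, Plac8 and Tbc1d9. Without knockdown tumors 1 and 3, which hold the muscle transcripts, 6 and 8 members were called for the difference and 5 and 1 in tumors. The remaining knockdown tumor is then assumed to vary like the other groups. In that setting 0 class I and 0 interferon-stimulated members were called in tumors, and 1 of each for the difference, with list medians of 0.79 and 0.50 for the difference. Knockdown tumor 3 had the lowest knockdown value for 34 of the 50 members called higher in tumors and the highest for 26 of the 38 called lower.

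Of the 23 differences, 47.8% were higher, but this split followed the scaling: 76.9% (30 of 39 calls) with median-of-ratios scaling and 67.4% (29 of 43) with quantile normalization. Of the 23 genes, 16 and 18 were still called under these 2 scalings, and 21 when members were rescaled to one total. Median-of-ratios scaling kept 5 of the 12 lower calls. All 23 kept their direction, but a turn was unlikely. The median difference of members moved only from -0.065 to 0.031, -0.029 and -0.057, and the smallest of the 23 was -0.39 for Hnrnpc. The level of 5 TPM in culture is a cut through a continuous range. Just inside it, 378 members with a lowest culture value of 5 to 6 TPM had a median difference of -0.08 with 1 called. Just outside it, 475 genes with a lowest value of 4 to 5 TPM had a median of -0.10 with 3 called.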

How the data were processed

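RNA was sequenced from 12 samples, 3 in each of 4 groups. The authors deposited 1 table per sample with TPM per gene, per the file headers, made with the mouse assembly GRCm39 and with RSEM, HISAT and fastp, per the submitters' processing notes. Their versions, settings, annotation and any use of strand are not given in the sources used here. The TPM tables of cultures and tumors were normalized separately, and TPM keeps no depth, so no counting interval is given. A count test had been planned in case the files held counts. Because they hold TPM, limma was used instead.

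Identifiers of assembled loci were dropped. Genes whose mean reached 1 TPM in any group were tested as log2(TPM + 1), a scale that understates the change of low genes, with limma 3.58.1 in R 4.3.3 (trended, robust empirical Bayes; Benjamini-Hochberg adjustment over all tested genes). The tumor and culture comparisons each used the 6 libraries of that tissue, and the difference used all 12. The steps were tested on simulated data. Values after ± are standard errors unless marked SD, all p-values are two-sided, and fold changes of means are on the TPM scale.

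Members and gene lists were chosen with earlier results of these data known. Genes were named by rule: St3gal3, the 10 highest and 10 lowest called differences, the 6 highest and 6 lowest further calls in tumors, and the 2 members with the smallest p for the difference on each list. Predicted and clone names were left out of the ranking. Other list members, the remaining called differences and the genes listed at 0 were named after their values were seen. One gene that the rule names is not reported here. Of 805 listed symbols 2 were not matched. RefSeq promoters matched 7061 of the members' symbols. Figures were drawn with matplotlib 3.10.9 under Python 3.11.15.

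Alternatives covered the pseudocount, the filter, gene length, a replicate block, 1 fit over all groups, 3 other scalings, the robust step, array weights, a size limit, other levels in culture and the omission of libraries.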

Additional observations from a re-analysis of the deposited data

Results flagged for a closer look

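For 23 members the effect of knockdown in tumors differed from that in culture by limma's test of the difference itself (adjusted p under 0.05 over 15381 genes). Each value is the tumor effect minus the culture effect on the log2(TPM + 1) scale. The higher values were 1.20 for Tapbpl and 1.00 for Tapbp, which load peptides on class I molecules, 0.87 for the class I chain H2-T23, 0.96 for Bst2 (tetherin), 0.88 for Samhd1 and 1.13 for Ube2l6, the Isg15-conjugating enzyme. They were 1.10 for Plac8, 1.06 for Casp1, 1.00 for Mgst1, 0.84 for Cp and 0.65 for Snx10. The lower values were -1.46 for Avil (advillin), -1.41 for the clock repressor Nr1d1, -1.09 for the histone H2bc4 and -0.64 for the histone H4c9. They were -0.76 for Phlda2, -0.72 for Pcyox1l, -0.68 for Snhg12, -0.59 for Rbp4, -0.55 for the collagen chaperone Serpinh1, -0.53 for Pabpc4, -0.41 for Igfbp4 and -0.39 for Hnrnpc. For Cp and Rbp4 the effects in the 2 tissues had opposite signs with groups that did not overlap in either.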

How the results depend on the processing

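The counts of called members moved with the processing. Among the 75 genes that the rule names or that were called for the difference, none changed the sign of its difference under an alternative run. This does not extend to tumor or culture effects near 0, as the tumor effect of Pdia3 turned with median-of-ratios scaling. For single genes and settings, 1385 results stayed on their side of the threshold, 316 lost their call and 27 gained one, and the cause was not tested. The 11 higher and 12 lower differences became 3 and 3 with a pseudocount of 0.1 and 3 and 3 with no filter. Only genes of 200 bases or more in the fit gave 19 lower differences. Higher differences numbered 30 with median-of-ratios scaling, 29 with quantile normalization and 6 with a floor of 20 TPM. Array weights gave 42 and 51, a log2 change of at least 1 gave 5 and 3, and leaving out knockdown tumors 1 and 3 gave 6 higher. In tumors the 50 higher and 38 lower calls became 14 and 2 with no filter, 125 and 110 with all groups in one fit, 159 and 296 with array weights, 12 and 4 at a log2 change of at least 1, and 5 and 1 without knockdown tumors 1 and 3. A floor of 20 TPM gave 29 higher in tumors. Lower calls in tumors were 63 with at least 1 TPM in 3 libraries, 63 with genes of 200 bases or more and 60 with quantile normalization. In culture 1 member was called with each of 6 alternatives (the pseudocount of 0.1, 1 TPM in 3 libraries, 200 bases or more, members rescaled to one total, array weights, and the floor on the culture mean). Leaving out each library in turn gave 3 to 23 higher and 3 to 25 lower differences, 8 to 46 higher and 0 to 69 lower in tumors, and 0 to 4 in culture.

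With the replicate block 0 members were called in the difference or in tumors, in either direction. Same-numbered cultures did not deviate together, with correlations of -0.241, -0.162 and -0.506. Same-numbered tumors had -0.0537, -0.0703 and 0.224, the last being the highest of any tumor pair. The numbers were not taken as pairing, which for tumors rests on small correlations of both signs. Some differently numbered cultures did deviate together. The correlation was 0.675 for HM1-shControl 1 with HM1-shST3GAL3 3, 0.476 for 2 with 1 and 0.63 for 3 with 2. The remaining culture pairs had -0.503, -0.229 and -0.12, and differently numbered tumors -0.172 to 0.184. A shared batch among cultures was not tested. Since TPM keeps no depth, how far depth limits low genes cannot be stated.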
